A study of Mus musculus with 21 samples.

Results

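Krt7, Krt8, Krt18, Krt19, Krt75 and Krt79 are 6 keratin genes of simple epithelia and of the hair follicle. They were taken by gene name from a table of 23713 genes measured in mouse tail keratinocytes, and all 6 names were found. The study compared epidermal cells of 3 mouse models of basal cell carcinoma, a skin tumour of hair follicle and epidermal cells, with tumour-free epidermis of the control mice given for each model. The models are labelled SmoM2, Gnas-eKO and PKI, and tumour and control libraries are called BCC and Con. Each model gave 3 Con and 4 BCC libraries, 21 libraries in all. SmoM2 cells were taken at day 29 after tumour induction, Gnas-eKO cells at day 42 and PKI cells at day 57. Each model is also its own labelled batch, A for SmoM2, B for Gnas-eKO and C for PKI, so the tumour and control libraries of a model share a batch, and differences among models cannot be told apart from batch or day. SmoM2 is known as an activated form of the Hedgehog signal transducer Smoothened, the product of Gnas is the alpha subunit of the stimulatory G protein, and PKI is the usual name of a peptide inhibitor of protein kinase A. The labels do not spell these names out, and the promoter or Cre that drives each change, the strain, the age and the genotype of the controls are not given in the sources used here. The labels do not say that each library is a separate animal, although the file headers carry a different name for each, so p-values here measure the spread between these samples.

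Keratins are the intermediate filament proteins of epithelial cells, and a filament is built from pairs of a type I and a type II keratin. Krt8 and Krt18 are the type II and type I partners of simple, single-layered epithelia, and in skin they are known from Merkel cells, the touch-sensing cells of the epidermis. Krt7 (type II) and Krt19 (type I) also belong to simple and glandular epithelia, and Krt19 is known from stem cells of the hair follicle bulge. Krt75 (type II) marks the companion layer around the hair shaft, and Krt79 (type II) marks the upper follicle, where the follicle opens to the surface.

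Except for Krt19, the genes lie in the type II keratin cluster of chromosome 15, where the 5 genes span 620985 bases (GRCm38, GENCODE M21). In map order these are Krt7 (ENSMUSG00000023039.17, chr15:101411043-101430313, plus strand), Krt75 (ENSMUSG00000022986.5, chr15:101563345-101573904, minus strand), Krt79 (ENSMUSG00000061397.8, chr15:101929332-101940324, minus strand), Krt8 (ENSMUSG00000049382.10, chr15:101996698-102004482, minus strand) and Krt18 (ENSMUSG00000023043.7, chr15:102028180-102032027, plus strand). Krt18 is a type I gene that sits beside Krt8 with its start 23698 bases away and reads the other way. Krt19 (ENSMUSG00000020911.14) lies in the type I cluster at chr11:100140810-100148665 on the minus strand.

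The promoters of Krt75, Krt7 and Krt79, which rose in PKI tumours, and of Krt8, which fell there, are printed from RefSeq (GRCm38.p6). Each runs 5′ to 3′ from 250 bases before to 50 bases after the RefSeq start. Capitals mark matches to TATAAA or ATAAAA on either strand. The first is the TATA box, at which the transcription machinery assembles, and the second was added to the search after the windows had been read. The windows are chr15:101573855-101574154 (minus strand) for Krt75, chr15:101412153-101412452 (plus strand) for Krt7, chr15:101940275-101940574 (minus strand) for Krt79 and chr15:102004293-102004592 (minus strand) for Krt8.
Krt75: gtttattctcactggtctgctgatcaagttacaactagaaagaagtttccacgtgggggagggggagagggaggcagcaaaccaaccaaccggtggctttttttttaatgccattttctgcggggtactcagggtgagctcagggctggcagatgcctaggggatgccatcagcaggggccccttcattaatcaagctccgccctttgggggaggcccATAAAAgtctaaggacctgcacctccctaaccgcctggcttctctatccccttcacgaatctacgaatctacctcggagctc
Krt7: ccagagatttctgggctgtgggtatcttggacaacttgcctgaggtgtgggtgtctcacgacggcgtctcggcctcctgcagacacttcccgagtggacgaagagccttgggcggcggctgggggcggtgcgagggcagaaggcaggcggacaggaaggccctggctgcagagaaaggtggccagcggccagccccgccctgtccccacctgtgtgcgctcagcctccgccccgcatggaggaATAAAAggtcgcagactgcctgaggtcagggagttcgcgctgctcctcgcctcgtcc
Krt79: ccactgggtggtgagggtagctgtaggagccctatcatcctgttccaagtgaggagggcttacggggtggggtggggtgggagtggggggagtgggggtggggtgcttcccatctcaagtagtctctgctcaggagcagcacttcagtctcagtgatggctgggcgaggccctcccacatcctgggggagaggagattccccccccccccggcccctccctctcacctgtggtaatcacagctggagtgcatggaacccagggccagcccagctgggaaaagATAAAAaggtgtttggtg
Krt8: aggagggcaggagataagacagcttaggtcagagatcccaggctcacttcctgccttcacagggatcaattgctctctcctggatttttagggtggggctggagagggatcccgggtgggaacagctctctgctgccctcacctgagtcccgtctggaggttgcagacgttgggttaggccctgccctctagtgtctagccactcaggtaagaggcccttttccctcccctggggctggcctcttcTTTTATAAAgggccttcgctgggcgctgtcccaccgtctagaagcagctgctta
TATAAA was found at Krt8 alone among the 5 promoters read (Krt18 is the other). There it begins at -1 on the printed strand and at -3 on the opposite strand, so it lies across the RefSeq start. The Krt8 capitals join these matches with an overlapping ATAAAA match (-4) on the opposite strand only. Of 27025 mouse promoters of this length, 14.16% hold this TATA box. The ATAAAA run was found at Krt7, Krt8, Krt75 and Krt79 and in 19.14% of all promoters. It begins at position -32 from the start in Krt75, at -7 in Krt7 and at 32 past the start in Krt79, so its place differs among these 3 genes. No member's window held the AP-1 motif TGANTCA (7.93% of promoters), the GLI motif GACCACCCA (0.244%), the cyclic AMP response element TGACGTCA (1.88%) or the shorter form of that element, TGACG (21.02%), which says only that these letters are not in these windows. The promoters of the 5 genes were 53.7% to 66.3% G and C, against a median of 52.7% over all promoters.

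The libraries held 16645858 to 22251132 estimated counts each. Levels are given as CPM, the counts of a gene scaled by TMM to a common library size, which corrects for a few genes taking up much of a library, and 3 counts were worth 0.134 to 0.19 CPM. Over all genes the first principal component (30.3% of the variance) separated BCC from Con, except that the library Gnas-eKO BCC replicate 2 lay at -20.6, between the other tumour libraries of all models (32.2 to 59.9) and the Con libraries (-57.1 to -40.2). The targeted genes were read first as a check of the labels. Smo was at 93.8 to 110.5 CPM in SmoM2 Con and 283 to 313 CPM in SmoM2 BCC, and it was also higher in BCC of Gnas-eKO (148 to 233 CPM against 106 to 113, not past the test) and of PKI (137 to 161 against 98.3 to 113, called). Gnas was at 172 to 178 CPM in Gnas-eKO Con and at 114, 89.4, 50.6 and 65.5 CPM in the BCC libraries, lower in each but not past the test. Gnas was called higher in BCC of SmoM2 (284 to 311 CPM against 181 to 193) and of PKI (276 to 312 against 234 to 265). Ptch1, a Hedgehog target, was called higher in BCC of all 3 models. In the file headers the SmoM2 BCC names carry another prefix than the SmoM2 Con names, which share theirs with the Gnas-eKO names. What the names and the prefix stand for is not given in the sources used here. Markers of basal keratinocytes summed to 26385 to 34613 CPM in the Con libraries, the highest of the cell type lists beside that of suprabasal keratinocytes.

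The 6 genes differed widely in level. Per kilobase of each gene's principal transcript, Krt79 made up 97.6% to 98.1% of their summed CPM in each group except PKI BCC, where it was 92.5% ± 1.06 (SD, n = 4). In SmoM2 and Gnas-eKO the order per kilobase was Krt79, Krt75, Krt7, Krt8, Krt18 and Krt19, in Con and BCC alike. In PKI Con, Krt7 (6.03 ± 2.29 CPM per kb, SD, n = 3) and Krt75 (5.71 ± 2.5) changed places, a difference within their spread. In PKI BCC, Krt75 was second with 5.77% ± 0.7 of the sum, and Krt19 (1.89 ± 0.594 CPM per kb, SD, n = 4) stood above Krt8 (0.925 ± 0.283) and Krt18 (0.462 ± 0.22).

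**Figure D1:**
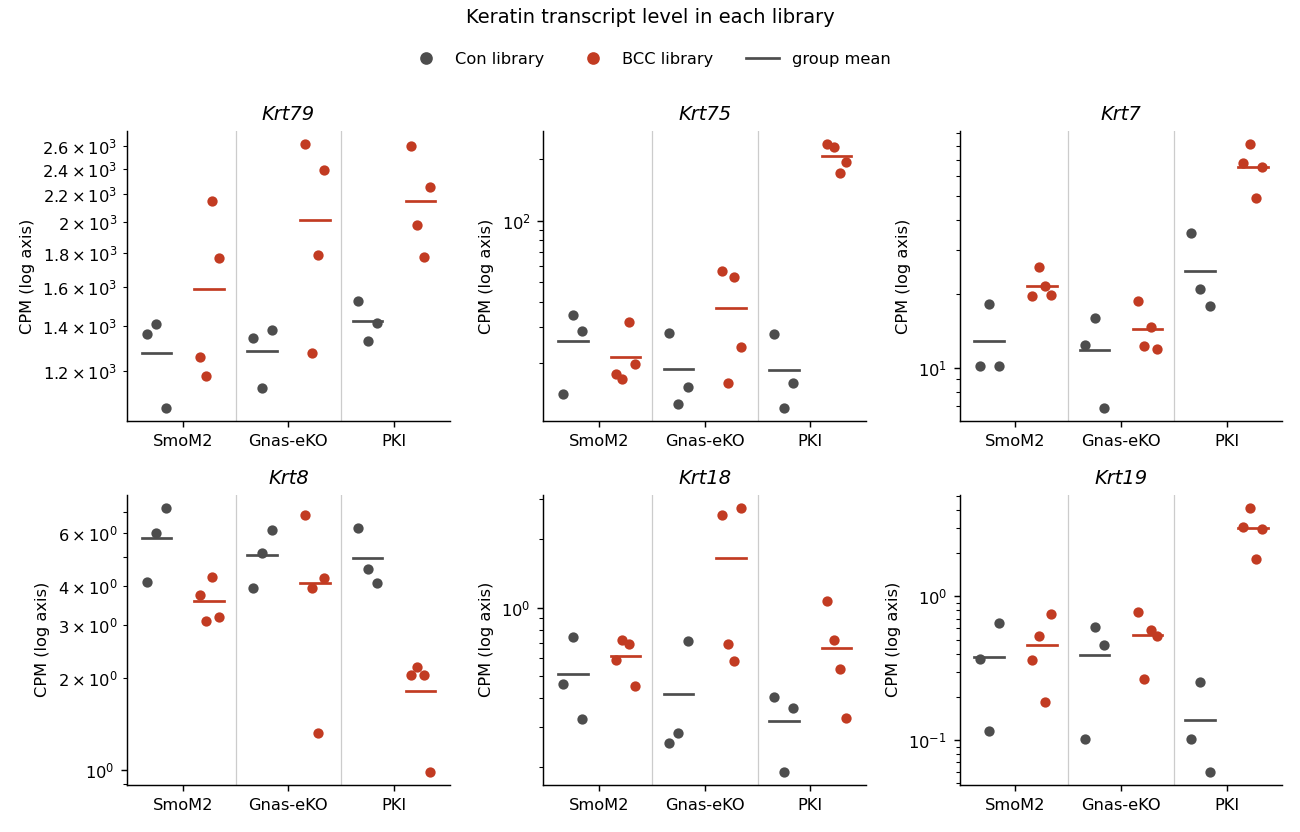
CPM of each keratin gene in each library on a log axis, one panel per gene, with Con libraries in grey, BCC libraries in red and the group mean as a line. In PKI the 4 BCC libraries lie above the 3 Con libraries for Krt79, Krt75, Krt7 and Krt19 and below them for Krt8.

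BCC was compared with Con within each model by edgeR's quasi-likelihood test with Benjamini-Hochberg adjustment over all genes tested, and a gene was called at an adjusted p under 0.05. In PKI tumours 5 of the 6 genes were called, Krt7, Krt19, Krt75 and Krt79 higher and Krt8 lower, where 34.5% of the genes tested were called, 18.7% higher and 15.8% lower. In SmoM2, Krt7 rose and Krt8 fell, 2 of 6 genes where 29.7% of all genes were called, 16.2% higher and 13.5% lower. In Gnas-eKO none of the 6 was called by edgeR, where 1.63% of all genes were. DESeq2 and limma also called none there, and 2 of the 6, Krt18 and Krt79, were under 0.05 before adjustment by edgeR. The share of all genes under 0.05 before adjustment was not counted, so such counts here and below are descriptions only. In SmoM2 the 6 genes had a median log2 fold change of 0.28, in Gnas-eKO 0.58 and in PKI 1.24, beside 0.00, 0.02 and -0.00 over all genes tested. All 6 passed the filter on low counts in each model, but in PKI Krt18 (3 to 8 counts in Con) and Krt19 (1 to 4) did so through the BCC libraries. In Gnas-eKO (5 to 14 and 2 to 11 counts in Con) and SmoM2 (6 to 13 and 2 to 12) they also needed BCC libraries to pass. The counts and medians of the 6 genes are therefore descriptions. Without the filter Krt19 kept its value in PKI (log2 4.41, adjusted p = 8.46e-05, edgeR). Tumour and control ranges did not overlap for 1 of the 6 genes (SmoM2), none (Gnas-eKO) and 5 (PKI), against 38.9%, 19.8% and 43.2% of all genes. In a bulk sample, more RNA per cell and more cells of the kind that expresses a gene cannot be told apart.

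**Figure D2:**
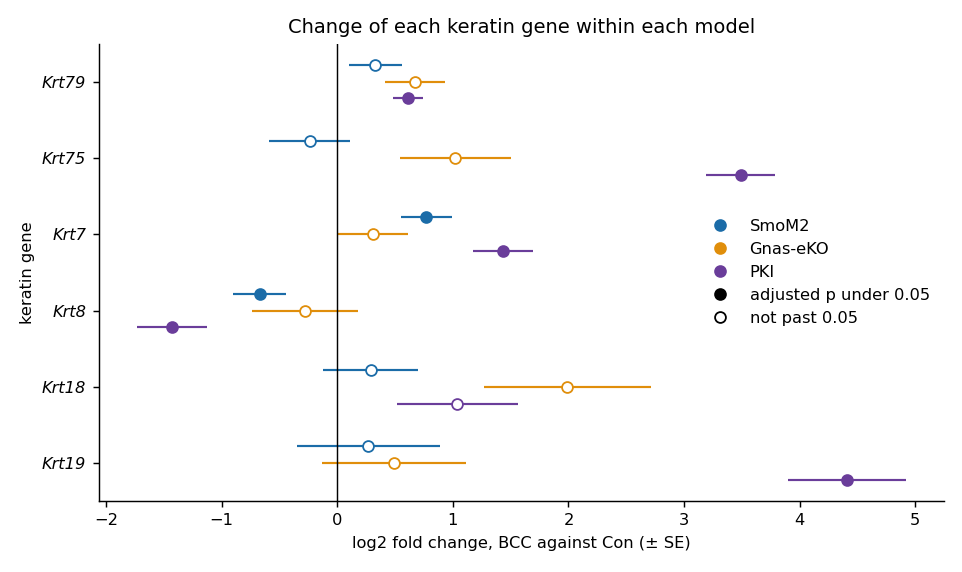
Log2 fold change of BCC against Con with its standard error for each keratin gene in each model, filled where the adjusted p was under 0.05. Krt19 (4.41) and Krt75 (3.49) in PKI stand furthest to the right, and Krt8 lies left of 0 in the 3 models.

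Krt79, the upper follicle keratin, was the most abundant of the 6 genes. In PKI it stood at 1525, 1331 and 1415 CPM in Con and at 2599, 1979, 1776 and 2255 CPM in BCC. The lowest tumour lay above the highest control, and Krt79 rose 1.53-fold (log2 0.61, SE 0.13, adjusted p = 0.00605, edgeR). A single fit of all 21 libraries gave log2 0.60 with an adjusted p of 0.0522, which missed the threshold.
In Gnas-eKO, Krt79 was at 1343, 1132 and 1380.2 CPM in Con and at 2615, 1276, 1788 and 2389 CPM in BCC. Of the tumours, 3 lay above every control and replicate 2 lay among them, with log2 0.67 (SE 0.26, adjusted p = 0.213, edgeR). Without Gnas-eKO BCC replicate 2, the library that stands apart over all genes, the value was 0.84 and was called (adjusted p = 0.0378).
In SmoM2 the Con libraries held 1364, 1411 and 1056 CPM of Krt79 and the BCC libraries 1257, 1180.2, 2150.0 and 1769.6 CPM. The groups overlapped and the gene was not called (log2 0.33, SE 0.23, adjusted p = 0.329, edgeR). Over the 6 groups, neighbouring groups in the order of mean Krt79, from PKI BCC (2153 ± 357 CPM, SD, n = 4) down to SmoM2 Con (1277 ± 193, n = 3), overlapped at each step.

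Other genes of the upper follicle were counted beside Krt79, with no test of their difference from it. Of 7 such genes in PKI, none was called higher, where 18.7% of all genes were, and 2 were called lower, where 15.8% were. Gata6, a transcription factor of the upper follicle and sebaceous duct, fell from 22.7 ± 1.34 to 11.7 ± 1.46 CPM (log2 -0.93, SE 0.12, adjusted p = 0.000647, edgeR). Cst6, a cysteine protease inhibitor of differentiating epidermis, fell from 793 ± 126 to 588 ± 81.3 CPM (log2 -0.42, SE 0.14, adjusted p = 0.0425, edgeR). The median log2 fold change of the 7 was 0.02 in PKI, 0.12 in SmoM2 and 0.70 in Gnas-eKO. None was called by edgeR in Gnas-eKO, where 4 were under 0.05 before adjustment. In SmoM2, 1 was called: Lrig1, a receptor regulator that marks stem cells below the follicle opening, named here after its value was seen, rose from 94.3 ± 8.76 to 213 ± 22.3 CPM (log2 1.19, SE 0.10, adjusted p = 2.03e-05, edgeR).

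Krt75, the companion layer keratin, rose more than 10-fold in PKI. Its level in PKI was 27.8, 12.1 and 16 CPM in Con and 237, 229, 171 and 194 CPM in BCC. Each tumour lay far above each control, an 11.2-fold rise (log2 3.49, SE 0.30, adjusted p = 0.000323, edgeR). The fit gave a log2 value of 3.26 to 3.89 when any 1 of the 7 libraries was left out, and Krt75 was called each time.
In SmoM2 the Krt75 levels were 14.1, 34.5 and 28.9 CPM in Con and 17.7, 16.8, 32 and 19.9 CPM in BCC, with overlapping groups (log2 -0.24, SE 0.35, adjusted p = 0.668, edgeR). In Gnas-eKO they were 28.3, 12.6 and 15.4 CPM in Con and 56.4, 16, 52.9 and 24.2 CPM in BCC. Replicates 1 and 3 lay above all controls while 2 and 4 lay within their range, and the gene was not called (log2 1.02, SE 0.48, adjusted p = 0.282, edgeR).
No keratin of the 6 was called different between the Gnas-eKO and SmoM2 effects by edgeR or DESeq2, where 0.175% of all genes were called by edgeR. The PKI change of Krt75 did differ from both: the PKI effect on Krt75 exceeded the SmoM2 effect by log2 3.72 (SE 0.50, adjusted p = 0.000433, edgeR interaction), where 24.9% of all genes were called, and the Gnas-eKO effect by log2 2.48 (SE 0.61, adjusted p = 0.027, edgeR interaction), where 9.06% were. The second difference was not past the threshold in 5 of 14 fits that left out 1 library, which were those without Gnas-eKO Con replicate 1 (2.05), PKI Con replicate 2 (2.25) or 3 (2.38), or PKI BCC replicate 1 (2.40) or 2 (2.42).

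Krt75 lies beside Krt6b and Krt6a in the cluster, keratins of activated, wounded and fast-growing epidermis. In PKI, Krt6b rose from 6.2 ± 2.08 to 2542 ± 1284 CPM (log2 8.70, SE 0.65, adjusted p = 0.000356, edgeR). The principal transcript of Krt75 is 80.5% identical to a Krt6b transcript over 35.8% of its length, and the counts of Krt75 were whole numbers in 21 of 21 libraries. Krt79 had a whole count in 1 of 21 libraries, and its transcript is 75.1% identical to one of Krt6a over 49.9% of its length, so reads shared with other genes may enter its values. Krt75 ranked 13 and Krt19 ranked 7 by log2 fold change among 48 keratins tested in PKI.

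**Figure D3:**
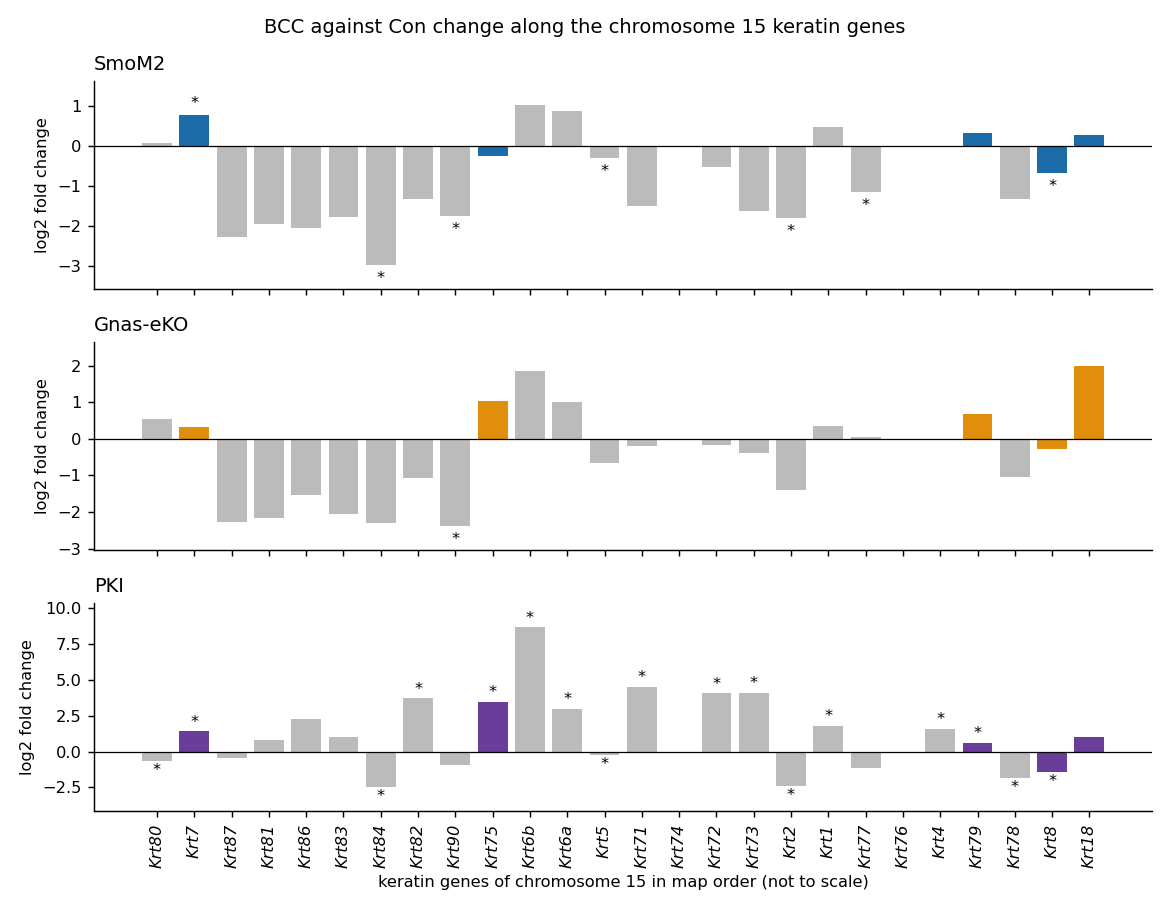
Log2 fold change of BCC against Con for the keratin genes of chromosome 15 in map order, one panel per model with its own scale, with the genes described here coloured and a star where the adjusted p was under 0.05. In PKI, Krt75 (3.49) and its neighbours Krt6b (8.70) and Krt6a (2.98) rose, while Krt8 (-1.43) fell beside Krt18 (1.04), which was not called.

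Among the 47 other keratins in the table, 17 rose and 9 fell of 42 tested in PKI (median log2 0.88). In SmoM2, 2 rose and 11 fell of 41 tested (median -1.33), and in Gnas-eKO none rose and 1 fell of 42 (median -0.69). The largest rises in PKI beside Krt6b were Krt26 (log2 7.91, SE 0.59), a keratin of the inner root sheath that encases the growing hair, Krt16 (6.29, SE 0.41), a partner of the Krt6 proteins, and Krt27 (4.84, SE 0.91), also of the inner root sheath. The median change of the 6 genes was thus above that of the other keratins in each model, a description with no test.

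Krt7, a type II keratin of simple and glandular epithelia, rose both in PKI and in SmoM2. In PKI it was at 35.3, 20.9 and 17.8 CPM in Con and at 67.9, 81.1, 48.9 and 65.2 CPM in BCC. The groups did not overlap and the rise was 2.69-fold (log2 1.43, SE 0.26, adjusted p = 0.00513, edgeR).
In SmoM2, Krt7 was at 10.2, 18.2 and 10.2 CPM in Con and at 19.5, 25.6, 21.4 and 19.7 CPM in BCC. The lowest tumour was just above the highest control, and the rise was 1.7-fold (log2 0.77, SE 0.22, adjusted p = 0.0263, edgeR). The call was lost in 4 of 7 fits that left out 1 library (without Con replicate 1 or 3, or BCC replicate 2 or 3, adjusted p up to 0.0841) and in the fit of all 21 libraries (0.75, adjusted p = 0.0679).
In Gnas-eKO the Krt7 levels were 12.4, 16 and 6.86 CPM in Con and 18.6, 12.2, 14.7 and 11.9 CPM in BCC, with overlapping groups (log2 0.31, SE 0.30, adjusted p = 0.623, edgeR). The PKI effect on Krt7 was not called different from the SmoM2 effect (difference 0.65, 95% interval -0.15 to 1.46) or from the Gnas-eKO effect (1.13, interval 0.24 to 2.02, adjusted p = 0.109, edgeR interaction). Without PKI Con replicate 1, the control with the most Krt7, both differences were called (1.01, adjusted p = 0.0443, and 1.47, adjusted p = 0.0445, edgeR), and the second also without Gnas-eKO Con replicate 3 (1.40, adjusted p = 0.042). PKI Con (24.7 ± 9.35 CPM, SD, n = 3) had a higher mean than the other Con groups, SmoM2 at 12.8 ± 4.62 and Gnas-eKO at 11.8 ± 4.62 CPM, and its range overlapped that of SmoM2. Krt7 overlaps the antisense gene Gm671, and whether counting used the strand is not given in the sources used here, so reads of that overlap cannot be assigned with certainty.

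Krt19, a type I keratin and the rarest of the 6 genes in the Con groups, rose most in PKI. It had 2, 4 and 1 counts in the PKI Con libraries (0.101, 0.253 and 0.0602 CPM) and 59, 80, 41 and 54 counts in the PKI BCC libraries (3.02, 4.13, 1.83 and 2.96 CPM). The controls were at or near the value of 3 counts, and each tumour was far above them. Summed over libraries and set against depth, 234 BCC counts against 7 Con counts gave a ratio of 21.9 with a 95% interval of 10.5 to 55.1, which covers counting error only. The fit gave log2 4.41 (SE 0.51, adjusted p = 0.000412, edgeR), and Krt19 was called in 7 of 7 fits that left out 1 library. With controls at 1 to 4 counts the size of the rise was less certain than its call: log2 5.09 without PKI Con replicate 2, and 1.78 in limma on the authors' normalized values with a pseudocount of 1.
In SmoM2, Krt19 was at 0.368, 0.115 and 0.649 CPM in Con and at 0.363, 0.53, 0.185 and 0.755 CPM in BCC (log2 0.27, SE 0.62, adjusted p = 0.788, edgeR). In Gnas-eKO it was at 0.101, 0.616 and 0.461 CPM in Con and at 0.779, 0.268, 0.582 and 0.531 CPM in BCC (log2 0.49, SE 0.62, adjusted p = 0.717, edgeR). In both models the groups overlapped, and the 95% intervals of the log2 fold change were wide, -1.13 to 1.67 and -0.92 to 1.91.
The PKI effect on Krt19 exceeded the SmoM2 effect by log2 4.14 (SE 0.86, adjusted p = 0.00347, edgeR interaction) and the Gnas-eKO effect by log2 3.92 (SE 0.84, adjusted p = 0.0132, edgeR interaction). The second difference missed the threshold in 1 of 14 fits that left out 1 library, that without Gnas-eKO Con replicate 2 (3.46, adjusted p = 0.0527).

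Bulge markers moved in both directions in PKI. Their summed level was 2181 to 2583 CPM in Con and 1351 to 1568 CPM in BCC, with 2 of 6 called higher, 2 lower and none at 0 in all libraries. Krt15, a bulge keratin that makes up most of that sum and was named after its value was seen, fell from 2064 ± 205 to 1066 ± 80.3 CPM (log2 -0.94, SE 0.10, adjusted p = 0.00024, edgeR). The others called, also named after their values were seen, were the transcription factor Lhx2, which rose from 43 ± 5.23 to 124 ± 21.3 CPM, the stem cell receptor Lgr5, which rose from 17 ± 2.57 to 23.7 ± 4.22 CPM, and Cd34, which fell from 15.6 ± 1.31 to 7.78 ± 3.43 CPM. Of the 6 bulge markers 4 were called higher and none lower in SmoM2, and 1 higher in Gnas-eKO. Leukocyte markers were at 19.2 to 22.3 CPM in the controls of PKI and at 44.2 to 62.2 CPM in its tumours (4 of 5 called higher), fibroblast markers to 15.8 to 43.4 and 84.4 to 145 CPM (3 of 6 called higher), and endothelial markers to 1.52 to 3.89 and 4.37 to 6.45 CPM (1 of 2 tested called higher). Their part in the rises of Krt7, Krt19, Krt75 and Krt79 was not tested. In SmoM2 fibroblast markers were at 17.2 to 39.8 CPM in the controls and 388 to 524 CPM in the tumours (2 of 6 called higher), almost all of it Dcn (21 ± 7.93 and 439.7 ± 69.6 CPM), and leukocyte markers at 18 to 26.7 and 9.42 to 14 CPM (1 of 5 called lower). Their part in the SmoM2 changes of Krt7 and Krt8 was not tested. In Gnas-eKO fibroblast markers were at 16 to 27.4 and 93.3 to 578 CPM (1 of 6 called higher).

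Krt8 was the one gene of the 6 that fell. In PKI it was at 6.22, 4.56 and 4.09 CPM in Con and at 2.05, 2.17, 2.05 and 0.987 CPM in BCC. The highest tumour had less than the lowest control, and Krt8 was 2.7-fold lower (log2 -1.43, SE 0.30, adjusted p = 0.00575, edgeR).
In SmoM2 it was at 4.14, 5.98 and 7.24 CPM in Con and at 3.76, 3.08, 4.31 and 3.17 CPM in BCC. BCC replicate 3 lay above Con replicate 1, so the groups overlapped, and the fall (log2 -0.67, SE 0.23) was called with an adjusted p of 0.0489 by edgeR. The call was lost in 5 of 7 fits that left out 1 library, which left it standing without Con replicate 1 or without BCC replicate 3 alone. With all libraries kept it was lost in 3 of 6 alternatives, among them limma on the authors' normalized values (-0.53, adjusted p = 0.0562) and the fit of all 21 libraries (-0.69, adjusted p = 0.193).
In Gnas-eKO, Krt8 was at 3.95, 5.15 and 6.14 CPM in Con and at 6.87, 3.96, 1.32 and 4.25 CPM in BCC, which held both the highest and the lowest values of the model (log2 -0.28, SE 0.46, adjusted p = 0.786, edgeR). The PKI effect was not called different from the SmoM2 effect (-0.76, 95% interval -1.57 to 0.05, adjusted p = 0.16, edgeR interaction) or from the Gnas-eKO effect (-1.14, interval -2.40 to 0.12, adjusted p = 0.243). Without Gnas-eKO BCC replicate 3 the second difference was called (-1.44, adjusted p = 0.0413, edgeR).

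The counts of Krt8 carry a doubt, since its transcript is 98.6% identical to the pseudogene Krt8-ps over 941 bases, 48.1% of its length, and none of its 21 values was a whole number. Krt8-ps itself had 17.4 to 50.8 counts in PKI controls and 6.88 to 19.8 in PKI tumours, where Krt8 had 67.6 to 123 and 18.1 to 46.2. The summed level of Merkel cell markers in PKI was 4.75 to 5.16 CPM in Con and 1.6 to 3.13 CPM in BCC, and Krt20, a Merkel cell keratin, was at 0.795 ± 0.369 and 0.189 ± 0.0294 CPM. Of 10 Merkel markers 2 had enough counts to be tested in PKI, none was called by edgeR (1 under 0.05 before adjustment) and none was at 0 in all libraries of a group. Their part in the fall of Krt8 was not tested. In SmoM2 the Merkel sum was 3.36 to 5.29 CPM in Con and 5.74 to 7.32 CPM in BCC. Of 4 tested there, 1 was called, the touch channel gene Piezo2, which rose from 0.607 ± 0.474 to 2.71 ± 0.238 CPM, while Krt20 was at 0.793 ± 0.723 and 0.653 ± 0.252 CPM.

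Krt18, the type I partner of Krt8, had few counts and was called in none of the 3 models by edgeR. Its transcript is 90.4% identical to one of Gm5200, a gene without values here, over 88.1% of its length. The counts of Krt18 were whole numbers in 21 of 21 libraries. In Gnas-eKO, Krt18 was at 0.253, 0.28 and 0.716 CPM in Con and at 2.57, 0.696, 0.582 and 2.75 CPM in BCC. BCC replicates 1 and 4 were far above the other libraries, and replicates 2 and 3 lay within the range of Con. The sums of 137 BCC and 24 Con counts gave a ratio of 4.07 (95% counting interval 2.63 to 6.57), while the fit gave log2 1.99 (SE 0.72, adjusted p = 0.182, edgeR). In the fit of all 21 libraries Krt18 was called (1.98, adjusted p = 0.0258), and limma on the authors' normalized values with a pseudocount of 1 gave 0.81. Krt18 needed the BCC libraries of Gnas-eKO to pass the filter on low counts in that model, so these values are descriptions.
The same libraries, replicates 1 and 4, also held the most Krt79 and the most Ptch1 of Gnas-eKO BCC, with Ptch1 at 926, 270.1, 312 and 826 CPM in replicates 1 to 4. Gli1, another Hedgehog target, was at 234, 9.64, 278 and 153 CPM in them and so did not share that order, with replicate 2 inside the Con range of 4.76 to 9.98 CPM.
In SmoM2 the Krt18 levels were 0.46, 0.747 and 0.324 CPM in Con and 0.589, 0.722, 0.696 and 0.453 CPM in BCC (log2 0.29, SE 0.41, adjusted p = 0.642, edgeR). In PKI they were 0.405, 0.19 and 0.361 CPM in Con and 1.07, 0.722, 0.536 and 0.329 CPM in BCC, with BCC replicate 4 within the range of Con (log2 1.04, SE 0.52, adjusted p = 0.152, edgeR).

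The transcript ratio of the Krt8 and Krt18 partners was lower in tumours of all 3 models. Per kilobase, the log2 ratio of Krt8 to Krt18 was 3.11 ± 0.81 (SD, n = 3) in SmoM2 Con and 2.11 ± 0.31 (n = 4) in SmoM2 BCC. The Gnas-eKO values were 3.31 ± 0.58 (Con) and 0.99 ± 0.79 (BCC), and the PKI values 3.57 ± 0.54 (Con) and 1.06 ± 0.42 (BCC). In each model the highest BCC value (2.36, 2.06 and 1.49) was below the lowest Con value (2.56, 2.65 and 3.06), and no ratio fell under 0.18, so Krt8 stayed above Krt18 in each library. Krt18 had 3 to 57 counts per library, the doubt about the Krt8 counts applies here too, and the ratio is given with no test. Ranges of single genes did not overlap for 38.9% (SmoM2), 19.8% (Gnas-eKO) and 43.2% (PKI) of all genes. No such share was counted for ratios of genes.

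**Figure D4:**
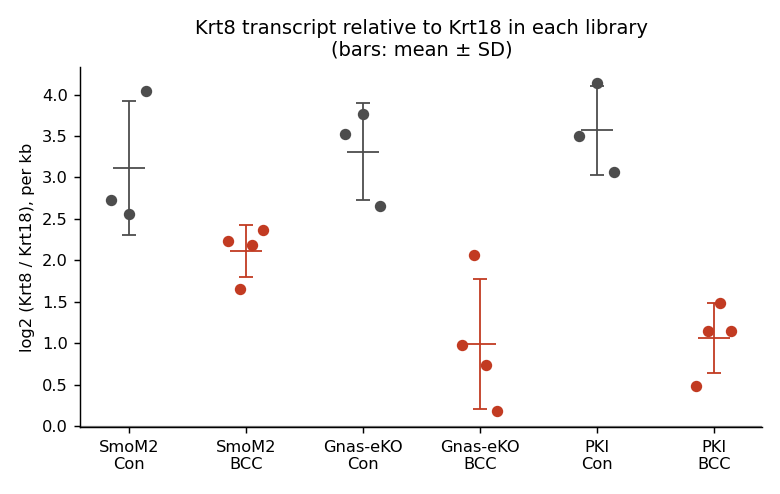
Log2 ratio of Krt8 to Krt18, each as CPM per kilobase of principal transcript, in each library, with the mean and SD of each group. BCC libraries (0.18 to 2.36) lie below the Con libraries of their own model, and the gap is narrowest in SmoM2.

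Beside the keratins, 11 genes of simple epithelia were counted. In PKI, 5 of 9 tested rose and none fell (median log2 0.51). Elf3, an epithelial transcription factor, rose from 0.767 ± 0.233 to 7.27 ± 2.86 CPM (log2 3.25, SE 0.39, adjusted p = 0.000492, edgeR). Epcam, an adhesion molecule of simple epithelia and hair follicles, rose from 87.6 ± 18.4 to 152 ± 31.3 CPM (0.81, SE 0.19), with smaller rises of Krt23 (0.55, SE 0.18) and the protease inhibitor Spint1 (0.51, SE 0.12). In SmoM2, 2 of 10 rose and 2 fell (median -0.28), and in Gnas-eKO none of 10 was called by edgeR and 5 were under 0.05 before adjustment (median 0.32). Genes called in the SmoM2 comparison, named after their values were seen, included Epcam (0.76, SE 0.12) and the membrane protease St14 (0.27, SE 0.09), which rose, and the tight junction protein Cldn4 (-0.95, SE 0.29), which fell.

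Genes of the hair placode and germ, which Hedgehog-driven tumours are known to express, were called higher for 4 of 6 tested (SmoM2), 1 of 6 (Gnas-eKO) and 3 of 7 (PKI), with 1, 0 and 1 called lower. Edar, the ectodysplasin receptor, rose from 1.63 ± 0.68 to 6.76 ± 0.775 CPM in SmoM2 and from 2.33 ± 0.613 to 10.3 ± 2.47 CPM in PKI. The gene called lower was Wnt10b in both models. It fell from 16.2 ± 3.91 to 10.5 ± 1.02 CPM in SmoM2 and from 26.5 ± 3.78 to 13.6 ± 4.08 CPM in PKI. Sebaceous gland markers, of a gland that opens into the upper follicle, were at 3142 to 5985 CPM in the controls of PKI and at 1140.2 to 3494 CPM in its tumours, with 2 of 8 called lower and none higher. Their part in the Krt79 rise was not tested.

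Across the 21 libraries, with each value taken as its difference from the mean of its model, the genes most like each keratin were found by Pearson's r of log2 CPM. These values share the split of BCC and Con and the depth of each library, and they are a description. Krt75 was most like Crnn (r = 0.95), a late differentiation gene of the epidermis, whose log2 fold changes were -1.14 (SmoM2), 2.02 (Gnas-eKO) and 4.30 (PKI). The next were Stk17b (0.943) and Sulf2 (0.938). Krt79 was most like Tgfa (0.932), an epidermal growth factor receptor ligand with changes of 0.43, 1.13 and 0.57, then Bace2 (0.917) and Pstpip2 (0.907). Krt8 was most like Sfrp1 (0.921), a secreted Wnt inhibitor, Rtn4rl1 (0.921) and Lypd6 (0.893). Krt7 was most like Fxyd5 (0.88), Elk3 (0.864) and Tmem176a (0.86), Krt19 like Bora (0.876), Dsn1 (0.873) and Lrrc4 (0.872), and Krt18, with the lowest values, like Carm1 (0.809), Schip1 (0.807) and Ptprj (0.803). Among the 6 genes themselves, Krt7 and Krt75 had r = 0.75, Krt19 and Krt75 0.74, and Krt18 and Krt79 0.74, while Krt8 had values of -0.56 to 0 with the other 5. Krt8 and Krt18, partners in the filament and neighbours on the chromosome, had r = 0.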

How the data were processed

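Estimated counts per gene, which need not be whole, were deposited by the authors as one table (27.9% of values not whole at a tolerance of 0.001). The authors' normalized signal, called TMM in the name of the second deposited table, holds each count times a library factor plus 0.001. Per the submitters' processing notes, bcl2fastq 2.20, cutadapt 1.18, STAR 2.7.0f and Partek were used with build mm10. Per the labels' protocols the RNA preparation was stranded and polyA based. The counting steps, annotation and strand setting are not given in the sources used here.

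Counts were rounded and tested in edgeR 4.0.16 (R 4.3.3) within each model's 7 libraries with filterByExpr, TMM and robust glmQLFTest, without a replicate block. Genes were called at an adjusted p under 0.05 over all genes tested. SE is the absolute log2 fold change over the square root of F. Differences between models were interaction contrasts over 14 libraries. CPM came from TMM-scaled library sizes, and per-kilobase values used the principal transcript of GENCODE M21. No pair of libraries agreed within sampling noise (lowest chi-square per degree of freedom 8.33). Alternatives were a replicate block, DESeq2 1.42.0, its size factors in edgeR, no filter, a fit of all 21 libraries, limma 3.58.1 on log2 of the authors' values plus 1, and leaving out each library. The procedure was tested on counts simulated with set fold changes, a setting without an outlying library or reads shared between genes.

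Named genes were the 6 keratins, the 3 genes most correlated with each (mean log2 CPM of at least 2), and at most 4 called genes per list, those with the largest change in the model with the most called. The members and lists were chosen with earlier results of these data known. Besides those used in the report, lists of basal and suprabasal keratinocyte and melanocyte markers were counted: of 5 each, 1, 0 and 0 were higher and 4, 2 and 2 lower in SmoM2, none was called in Gnas-eKO by edgeR, and 0, 1 and 0 were higher and 2, 1 and 4 lower in PKI. In SmoM2, 1 of 4 tested Merkel markers was called higher and none of 8 sebaceous markers was called by edgeR. A called gene of the simple epithelial list is not reported here.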

Additional observations from a re-analysis of the deposited data

Results flagged for a closer look

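Krt8 in PKI BCC replicate 4 was 0.987 CPM, below the 2.05 to 2.17 CPM of the other 3 tumours, with a gap to the nearest library of 0.897 of the group's range. Of 18 groups of values looked at in this way it was the one found, and chance marks about 1 in 20.

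The effect of PKI on 2 of the keratins differed from that of the other models by a test of the difference itself, where 24.9% of all genes were called against SmoM2 and 9.06% against Gnas-eKO. For Krt19 the PKI effect exceeded the SmoM2 effect by log2 4.14 (adjusted p = 0.00347, edgeR interaction) and the Gnas-eKO effect by 3.92 (adjusted p = 0.0132). For Krt75 the differences were 3.72 (adjusted p = 0.000433, edgeR interaction) and 2.48 (adjusted p = 0.027). Krt19 and Krt75 were higher in 4 of 4 PKI tumours than in each PKI control. Model, day and labelled batch cannot be told apart in these differences.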

How the results depend on the processing

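The count of keratins called in PKI was 5 under each alternative, except that the fit of all 21 libraries lost Krt79 (4 left). In SmoM2 the count of 2 became 1 with a replicate block (Krt8 at -0.60, adjusted p = 0.129, edgeR) and in limma, 0 in the fit of all 21 libraries, and 0 to 1 without 1 library. In Gnas-eKO the count of 0 became 1 in the fit of all 21 libraries and was 0 to 1 without 1 library. For PKI against Gnas-eKO the count of 2 became 1 with the replicate block (Krt75 kept, Krt19 at 3.92 with an adjusted p of 0.0596, edgeR) and was 1 to 3 without 1 library, where Krt7 was called too without Gnas-eKO Con replicate 3 or PKI Con replicate 1 and Krt8 without Gnas-eKO BCC replicate 3. For PKI against SmoM2 it was 2, and 3 without PKI Con replicate 1 (Krt7 added). Same-numbered Con and BCC libraries correlated at -0.11 to 0.24 in their deviations, and in no model did each library correlate best with its own number, so the numbers were not taken as pairs. The block gave 0.05 for Krt79 in PKI against Gnas-eKO and -0.02 for Krt19 in SmoM2, each with the sign turned. Signs of uncalled values also turned without 1 library: Krt19 (-0.13 to 0.86) and Krt75 (-0.54 to 0.02) in SmoM2, Krt8 in Gnas-eKO (-0.65 to 0.01), Krt19 in Gnas-eKO against SmoM2 (-0.37 to 0.69) and Krt79 in PKI against Gnas-eKO (-0.23 to 0.09). The cause was not tested. Limma's pseudocount of 1 lowered Krt19 in PKI to 1.78. The nearest genes changed with the correlation: Spearman's shared 0 to 1 of the 3 for 6 keratins. Over all genes the 267 calls in Gnas-eKO became 1535 with DESeq2, 2644 in the fit of all 21 libraries, 135 with the block and 0 to 1910 without 1 library. The share of all genes called for PKI against Gnas-eKO, 9.06%, was 5.36% with the block, 5.49% without the filter, 13.9% with DESeq2 and 3.79% (without Gnas-eKO Con replicate 2) to 14.7% (without Gnas-eKO BCC replicate 3) without 1 library. Low counts left Krt19 in SmoM2 untested in 2 fits without 1 library and Krt18 in PKI in 3. Low counts of Krt18 and Krt19 limit what could be resolved in the 3 models, although Krt19 in PKI was called in each fit. For Krt18 in Gnas-eKO the BCC libraries also differed widely (0.582 to 2.75 CPM).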
